A study of Homo sapiens with 9 samples.

Results

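The interferon-stimulated genes were examined in 9 RNA-seq libraries of HCT116, a human colorectal carcinoma cell line in long use. They comprised 46 genes, chosen by name as known interferon-stimulated genes or as the STAT and IRF factors that control them, of 58735 genes in the expression table. There were 3 libraries in each of 3 genotypes. A20-WT cells were wild type, A20-KO cells carried a knockout of A20 (the protein of TNFAIP3), and A20-OE cells were A20-KO cells in which A20 was put back. According to the Methods, guides against A20 were delivered in the lentiviral LentiCRISPR v2 backbone with puromycin selection, and A20 was expressed from the vector pCMV-3xFlag-A20. Whether the A20-KO cells were 1 clone or a pool, and whether the A20-WT cells carried a control vector, is not given in the sources used here. No interferon treatment is named in the labels. Nothing says that replicates were separate cultures, so p-values measured the spread between these libraries, which may be technical.

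Interferons are secreted proteins that warn cells of infection. Type I and type III interferons bind their receptors, the kinases JAK1 and TYK2 are activated, and STAT2 and IRF9 act in a complex called ISGF3. ISGF3 binds the interferon-stimulated response element (ISRE) in the promoters of its targets, whereas interferon gamma acts mainly on gamma-activated sequences. The products of the induced genes bind viral RNA, hold virions at membranes or conjugate the ubiquitin-like protein ISG15. Upstream of the interferons, RIG-I-like receptors sense viral RNA and signal to IRF3 and IRF7. A20 is a ubiquitin-editing enzyme best known as an inhibitor of NF-kB signalling, and it also dampens signalling from innate immune sensors.

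Promoter sequences of the members are shown first because the ISRE is what joins many of them. RefSeq windows on GRCh38.p14, running from 250 bases before to 50 bases after each start site, were found for 34 of the 46 members. The ISRE core was searched on both strands as GAAA, any 2 bases and GAAA again, and 28 of the 42 member windows held a match (66.67%), against 3.574% of all 35116 promoter windows of the same length. These windows belonged to 24 members. Those with a match were BST2, DTX3L, GBP1, GBP3, HERC5, IFI27, IFI44, IFI44L, IFI6, IFIH1, IFIT1, IFIT3, IFIT5, IFITM1, IFITM3, ISG15, ISG20, LGALS3BP, MX1, OAS3, PARP14, PARP9, SAMD9 and TRIM21. The gamma-activated sequence was searched as TTCNNNGAA, and 11 of the 42 member windows held it (26.19%), against 7.657% of all windows. The members were chosen as known interferon-stimulated genes, so high shares of these motifs were built into the choice and are no independent result. Some members have several start sites whose windows overlap, and the search letters of either motif may overlap a second match of the same motif.

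The runs below come from ISG15, the member best known for its ISRE, and from members that passed the test described later. Each is 30 bases long, written 5′ to 3′ on the strand of the gene, and the capitals mark the match or overlapping matches on either strand.
ISG15, chr1:1013377-1013406, plus strand: gcctcggGAAAGGGAAACCGAAActgaagc
IFI6, chr1:27672329-27672358, minus strand: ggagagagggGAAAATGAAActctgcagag
IFI6, chr1:27672288-27672317, minus strand: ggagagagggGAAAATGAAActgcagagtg
IFI6, chr1:27672266-27672295, minus strand: gcagagtgcaGAAATAGAAActccgacagg
IFITM1, chr11:313990-314019, plus strand: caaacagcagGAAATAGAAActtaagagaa
IFITM3, chr11:320893-320922, minus strand: caaatgccagGAAAAGGAAActgttgagaa
IFITM3, chr11:320876-320905, minus strand: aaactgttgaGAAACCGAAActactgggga
BST2, chr19:17405738-17405767, minus strand: tttctggGAAACTGAAACTGAAAacctaat
OAS3, chr12:112938321-112938350, plus strand: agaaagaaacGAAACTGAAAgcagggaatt
IFI27, chr14:94110618-94110647, plus strand: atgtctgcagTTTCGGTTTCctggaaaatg

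ISG15 and BST2 each held 2 overlapping matches in the run shown, and IFI6 held 3 matches, which began 156, 115 and 93 bases before its start site. In the runs shown, the first BST2 match began 130 bases before the start site and the OAS3 match 143 bases. The IFITM1 match shown began 40 bases before it, and the IFITM3 matches 52 and 35 bases. OAS3 and IFITM1 each held a further match, 12 and 6 bases before the start. Start sites here are those of RefSeq and are not always the ends of the gene spans given below. Over all members, 44 of 48 matches lay before the start site, and these lay within 196 bases of it. Matches were counted per window, so a site in overlapping windows, as for IFI27 and IFI44, counts in each. STAT2 held no match in its window. The matches describe the letters in these windows and say nothing of binding in these cells.

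**Figure D1:**
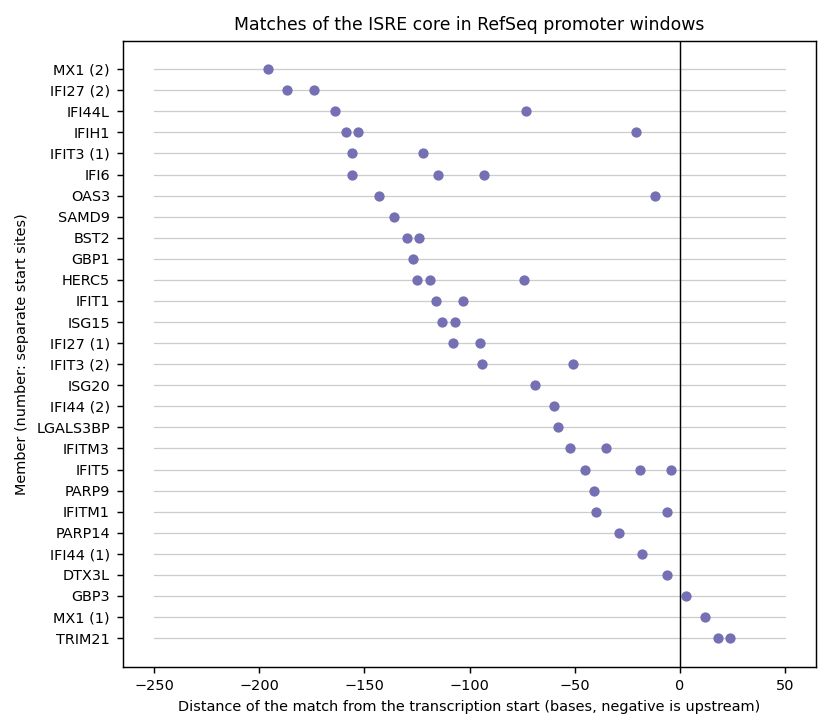
Position of each ISRE core match (point) in the promoter windows of members that hold one, in bases from the transcription start (horizontal axis, negative is upstream, grey line the window searched), with 1 line per start site. Of the 48 matches, counted per window so that a site in overlapping windows counts in each, 44 lie upstream of the start, between 4 and 196 bases from it.

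The libraries held between 23406222 and 24963691 reads assigned to genes. Mitochondrial transcripts took 7.52% to 10.1% of these reads in A20-WT, 9.18% to 11.9% in A20-KO and 12% to 14% in A20-OE. Values are FPKM, fragments scaled to gene length and to the fragments of the library, so levels of different genes are given per length. Colorectal epithelial markers (EPCAM, KRT8, KRT18, KRT19, CDH1 and CLDN7) were present in every library, and their summed FPKM was 1122 to 1525 in A20-WT, 1755 to 2316 in A20-KO and 1755 to 2309 in A20-OE. Of 6 leukocyte markers 4 lay under a mean of 0.1 FPKM, PTPRC among them, and the sum of the 6 was at most 0.569 FPKM in any library. CSF1R, a leukocyte marker, was at 0.0621 to 0.0699 FPKM in A20-WT, 0.0959 to 0.103 in A20-KO and 0.237 to 0.282 in A20-OE. Fibroblast and endothelial markers lay under a mean of 0.1 FPKM for 5 of 7 genes, and COL1A1 was the exception with a level above 1 FPKM, at 4.55 to 5.8 in A20-WT, 12.4 to 14.9 in A20-KO and 11.0 to 12.2 in A20-OE. The endothelial marker PECAM1 was at 0.0206 to 0.0363 FPKM in A20-WT, 0.0996 to 0.133 in A20-KO and 0.0897 to 0.149 in A20-OE, and VWF at 0.0930 to 0.131, 0.116 to 0.127 and 0.173 to 0.217. The part of these differences in the results was not tested. In bulk RNA, fewer cells of a type and less RNA per cell cannot be told apart.

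The transcript of the targeted gene, TNFAIP3, was more abundant in A20-KO than in A20-WT libraries. Its level was 0.869, 0.800 and 0.736 FPKM in A20-WT, 1.93, 2.16 and 1.04 FPKM in A20-KO, and 58.7, 66.5 and 56.5 FPKM in A20-OE. The A20-KO libraries all lay above the A20-WT libraries, with a log2 fold change of 0.95 (SE 0.229, limma adjusted p = 0.0182). The A20-OE libraries lay 6.07 above A20-WT on the log2 scale (limma adjusted p = 1.99e-06). A small edit that leaves the transcript in place is not read by this measure, so the mRNA supports the label of A20-OE but does not check that of A20-KO. A20-KO below therefore means the libraries that carry that label. The paper shows the A20 level of its knockout and rescue cells in a figure, which was not read here.

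The members differed widely in level. IFITM3 (mean 184 FPKM over the 9 libraries), LGALS3BP (129 FPKM) and ISG15 (101 FPKM) were above 50 FPKM. IFITM2, IFI6, IRF3, STAT2 and UBE2L6 had means between 10 and 50 FPKM, 19 members had means between 1 and 10 FPKM, and 13 had means between 0.1 and 1 FPKM. The other 6, OAS2, GBP1, SAMD9L, MX2, IFI44L and XAF1, had means under 0.1 FPKM and entered no test. IFI44L had 4 reads and XAF1 had 2 reads over all 9 libraries, while OAS2, the best covered of the 6, had 38 reads.

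**Figure D2:**
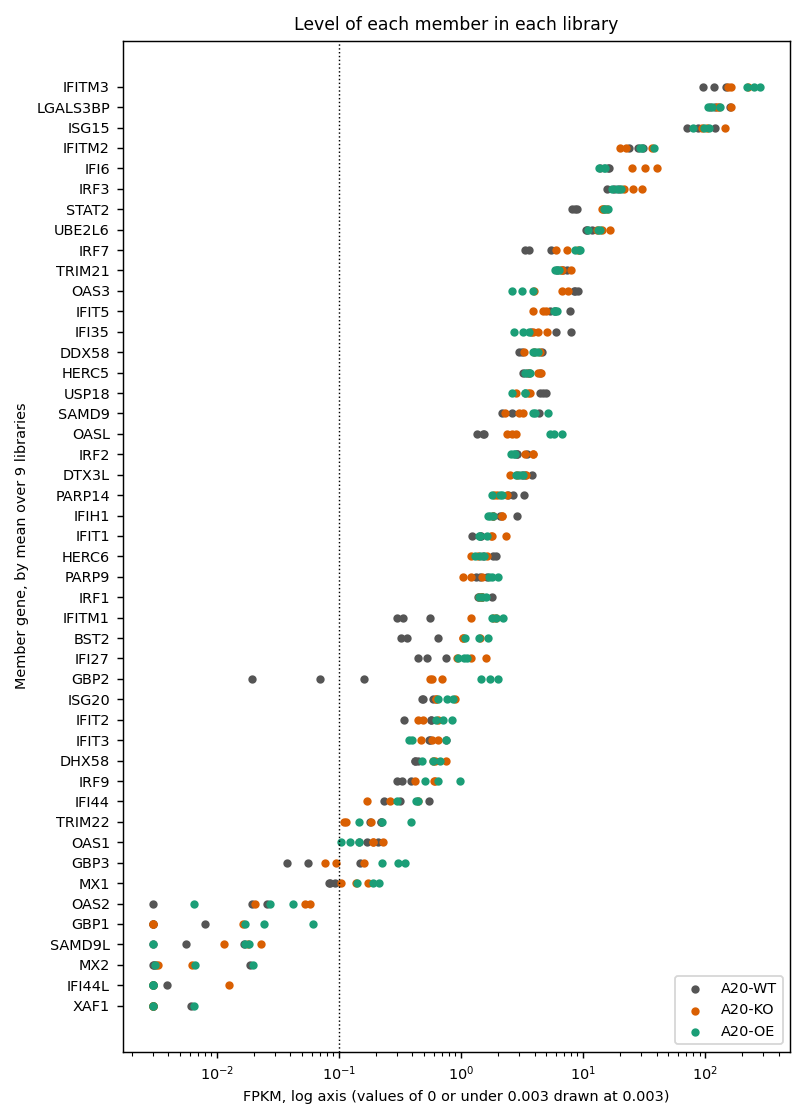
FPKM of each member in each of the 9 libraries on a log axis (points coloured by genotype, the dotted line at the filter of 0.1 FPKM, values of 0 drawn at the left edge). IFITM3, LGALS3BP and ISG15 lead at about 100 FPKM or more, and 6 members lie left of the line. All 3 genotypes separate for GBP2, OASL and OAS3. A20-WT lies apart from both other genotypes for members such as IFITM1, BST2 and STAT2, and A20-KO for members such as IFI6.

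Each pair of genotypes was compared to ask how the interferon-stimulated genes differed with loss and return of A20. A gene passed at a limma adjusted p under 0.05 over the 21636 genes with a mean of at least 0.1 FPKM, of which 40 were members. In A20-KO against A20-WT, 11 members rose (STAT2, IRF3, IRF7, IFIT1, OASL, IFITM1, BST2, UBE2L6, IFI6, IFI27 and GBP2), which is 27.5% of those tested against 11.3% of all genes, and USP18 fell, which is 2.5% against 11.0%. The median log2 fold change of the members was 0.16, against -0.01 over all genes tested, and single values ran from -0.57 to 2.03. Adding an absolute log2 fold change above 1 left 4 members, IFITM1, BST2, IFI6 and GBP2, or 10% against 6.99%. The count was 6 in place of 12 without A20-WT replicate 2, without A20-KO replicate 1 or without A20-KO replicate 3. Calls over all genes fell too, from 4816 of 21636 to 3446, 3110 and 3529 in the same order.

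In A20-OE against A20-KO, 2 members rose (OASL and GBP2), 5% against 4.43% of all genes, and 2 fell (IFI6 and IRF2), 5% against 4.54%. Past the fold threshold were OASL, GBP2 and IFI6, 7.5% against 2.39%. The member shares by direction were near those of all genes, and the median was 0.04 against 0.01. The count of 4 was 2 when A20-KO replicate 1 or 2, or any single A20-OE library, was left out. Calls over all genes fell in these fits too, from 1940 to between 454 and 1169.

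In A20-OE against A20-WT, 10 members rose (STAT2, IRF7, IRF9, OASL, IFITM1, IFITM3, BST2, IFI27, GBP2 and GBP3), 25% against 15.7% of all genes, and 3 fell (OAS3, USP18 and IFI35), 7.5% against 15.4%. GBP3 reached the filter only through the A20-OE libraries, where it was high, and without it 9 of 39 rose (23.1%). Past the fold threshold were 8 members, 20% against 11.9%, or 7 of 39 (17.9%) without GBP3. The median over the 40 members was 0.13 against 0.03. The comparisons share libraries, so their results are not independent of each other.

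**Figure D3:**
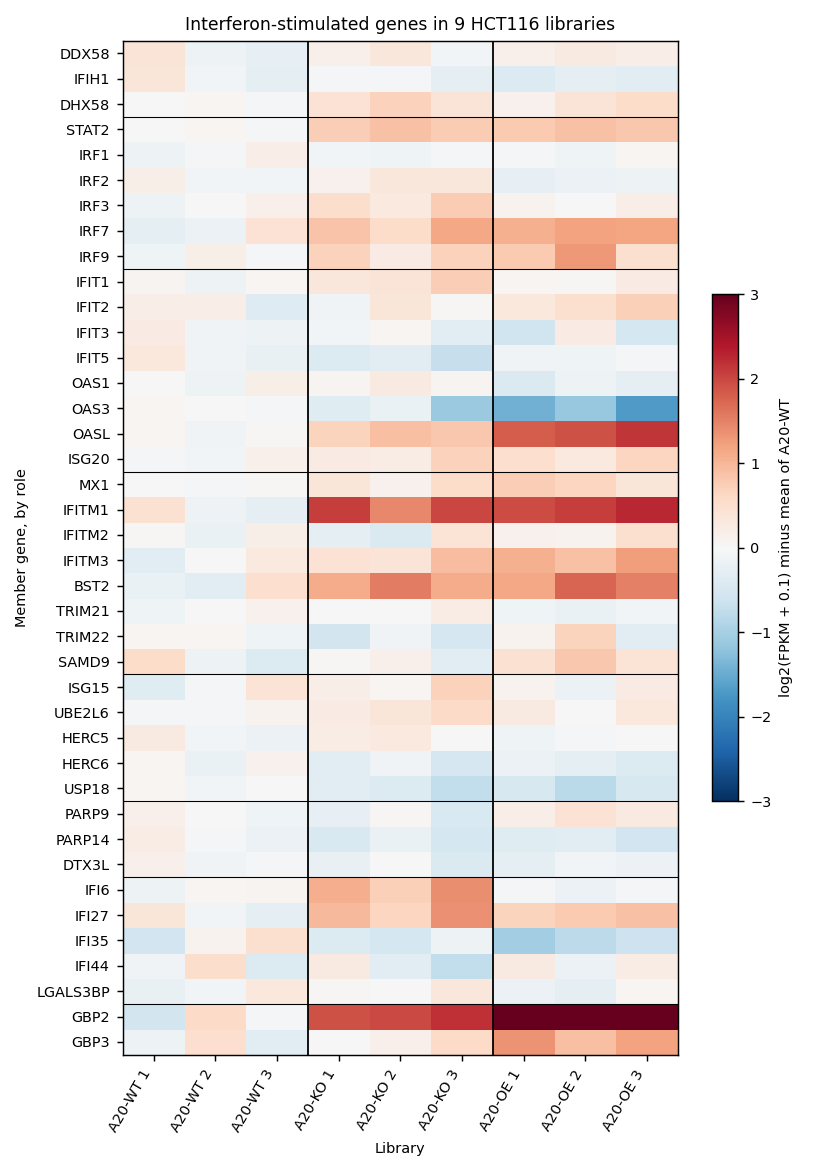
Level of the 40 tested members in the 9 libraries as the difference of log2(FPKM + 0.1) from the A20-WT mean (colour, capped at 3 in either direction), rows ordered by role. GBP2, IFITM1, BST2 and OASL are raised in both A20-KO and A20-OE libraries, IFI6 in the A20-KO libraries, and OAS3 is lowest in the A20-OE libraries.

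**Figure D4:**
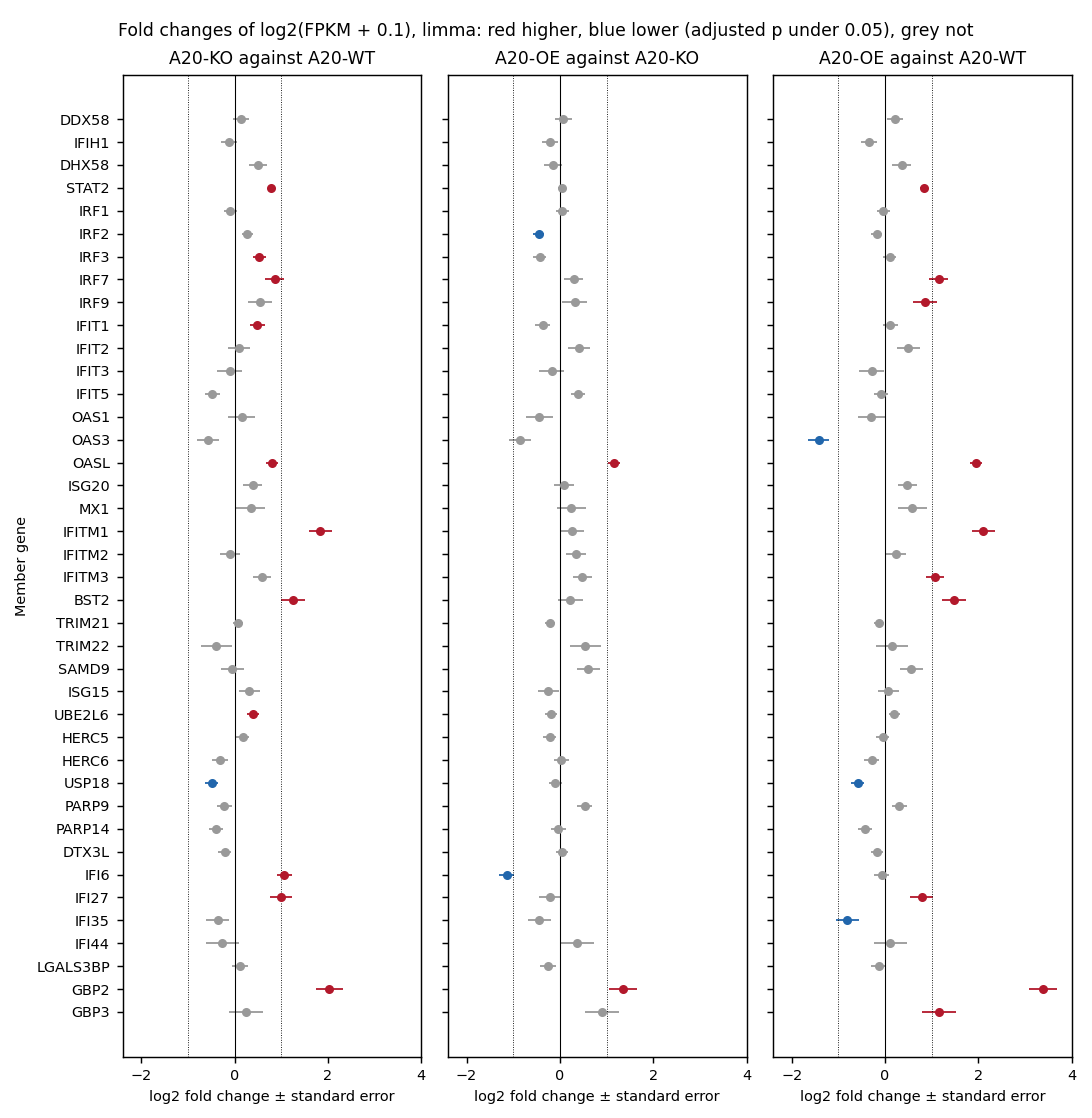
Log2 fold change with its standard error for the 40 tested members in the 3 comparisons (limma on log2(FPKM + 0.1), 3 libraries per group; red passed higher, blue passed lower, grey did not pass; dotted lines at 1 and -1). Red points number 11, 2 and 10 and blue points 1, 2 and 3 in the panels from left to right, and GBP2 holds the largest rise at 3.38.

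Of the cytoplasmic RNA sensors, none passed in any comparison. DDX58 (RIG-I), the highest of the 3, was at 4.64, 3.14 and 2.97 FPKM in A20-WT, 3.94, 4.45 and 3.29 FPKM in A20-KO, and 3.92, 4.25 and 4.06 FPKM in A20-OE. The groups overlapped. IFIH1 (MDA5) ranged from 1.65 to 2.87 FPKM and was lower in every A20-OE library than in every A20-KO and A20-WT library. Its log2 fold changes of -0.22 against A20-KO (limma adjusted p = 0.466) and -0.34 against A20-WT (limma adjusted p = 0.174) did not pass. DHX58 (LGP2), which modulates the other two, ranged from 0.416 to 0.752 FPKM. DHX58 was higher in every A20-KO library than in every A20-WT library, with a log2 fold change of 0.50 that did not pass (limma adjusted p = 0.101).

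Among the 6 STAT and IRF regulators, 3 rose in A20-KO against A20-WT (50% against 11.3% of all genes) and 3 rose in A20-OE against A20-WT (50% against 15.7%). In A20-OE against A20-KO, IRF2 alone of the 6 fell (16.7% against 4.54%) and none rose. STAT2, the subunit that gives ISGF3 its main activation domain, was at 8.64, 8.99 and 8.19 FPKM in A20-WT, 14.3, 15.8 and 14.7 FPKM in A20-KO, and 14.9, 16.0 and 15.1 FPKM in A20-OE. Both A20-KO and A20-OE lay clear of A20-WT and overlapped each other. The log2 fold change was 0.79 in A20-KO (SE 0.0836, limma adjusted p = 0.000472) and 0.83 in A20-OE (limma adjusted p = 0.000143) against A20-WT, and 0.04 between them (limma adjusted p = 0.808).

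IRF7, the factor that amplifies type I interferon production, was at 3.34, 3.58 and 5.48 FPKM in A20-WT, 7.44, 5.97 and 9.08 FPKM in A20-KO, and 8.56, 9.40 and 9.31 FPKM in A20-OE. All A20-KO and A20-OE libraries lay above those of A20-WT. The rise was 0.86 in A20-KO (SE 0.202, limma adjusted p = 0.0160) and 1.15 in A20-OE (limma adjusted p = 0.00257). IRF7 (ENSG00000185507) spans chr11:612553-615999 on the minus strand. Its call in A20-KO was lost without A20-WT replicate 1 or 2 or A20-KO replicate 1 or 3 (limma adjusted p 0.0507 to 0.0607).

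IRF3, which starts interferon transcription after sensor signalling and was the highest of the regulators, was at 15.7, 17.8 and 19.6 FPKM in A20-WT, 25.5, 21.4 and 30.2 FPKM in A20-KO, and 18.9, 17.4 and 20.3 FPKM in A20-OE. The A20-KO libraries lay above both other groups, which overlapped. Its rise of 0.53 in A20-KO against A20-WT passed (SE 0.139, limma adjusted p = 0.0250), and the difference of -0.43 in A20-OE against A20-KO did not (limma adjusted p = 0.0873). The call was lost without A20-WT replicate 1 or 2 or A20-KO replicate 1 or 3 (limma adjusted p 0.0674 to 0.0731). IRF3 shares 19.35% of its exonic bases with BCL2L12 on the opposite strand, and the strand setting of the counting is not given in the sources used here.

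IRF9, the DNA-binding subunit of ISGF3, had means of 0.338 ± 0.0475, 0.542 ± 0.107 and 0.712 ± 0.242 FPKM in A20-WT, A20-KO and A20-OE (SD, n = 3 each). Its rise of 0.85 in A20-OE against A20-WT passed (SE 0.263, limma adjusted p = 0.0357), but was lost without any A20-WT library, A20-KO replicate 1 or A20-OE replicate 1 or 2 (limma adjusted p 0.0530 to 0.116). The rise was 0.35 with a pseudocount of 1 FPKM in place of 0.1. IRF9 shares 48.44% of its exonic bases with AL136295.5 on the same strand. IRF2, a repressor that competes for the ISRE, fell in A20-OE against A20-KO by 0.46 on the log2 scale (SE 0.119, limma adjusted p = 0.0473), from 3.73 ± 0.312 to 2.68 ± 0.103 FPKM (SD, n = 3 each). That call was lost when any library other than A20-WT replicate 1 was left out (limma adjusted p 0.0515 to 0.155). IRF1, an activator induced by interferon gamma, ranged from 1.38 to 1.79 FPKM and passed nowhere.

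Of the 9 IFIT, OAS and ISG20 genes, whose products bind or degrade RNA, OASL stood out with a step between each pair of groups. OASL (ENSG00000135114), an enzymatically inactive relative of the oligoadenylate synthetases that promotes RIG-I signalling, spans chr12:121019111-121039242 on the minus strand. It was at 1.53, 1.35 and 1.5 FPKM in A20-WT, 2.37, 2.82 and 2.62 FPKM in A20-KO, and 5.40, 5.74 and 6.77 FPKM in A20-OE. No groups overlapped. OASL rose by 0.79 in A20-KO against A20-WT (SE 0.127, limma adjusted p = 0.00297), by 1.16 in A20-OE against A20-KO (limma adjusted p = 0.00206) and by 1.95 in A20-OE against A20-WT (limma adjusted p = 1.66e-05). The last difference was 4.08-fold in mean FPKM.

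OAS3 (ENSG00000111331), which makes the 2-5A messenger that activates RNase L, spans chr12:112938352-112973249 on the plus strand. It was at 9.09, 8.57 and 8.39 FPKM in A20-WT, 6.68, 7.49 and 3.94 FPKM in A20-KO, and 3.14, 3.90 and 2.60 FPKM in A20-OE. The groups did not overlap, although A20-KO replicate 3 lay next to the highest A20-OE library. OAS3 fell in A20-OE against A20-WT by 1.43 on the log2 scale (SE 0.231, limma adjusted p = 0.00171), to 0.370 of the A20-WT mean FPKM. The differences of -0.57 in A20-KO against A20-WT (limma adjusted p = 0.111) and -0.86 in A20-OE against A20-KO (limma adjusted p = 0.0515) did not pass.

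IFIT1, which binds viral RNA that lacks 2′-O-methylation of its cap, had means of 1.37 ± 0.127, 1.97 ± 0.311 and 1.49 ± 0.125 FPKM in A20-WT, A20-KO and A20-OE (SD, n = 3 each). Its rise of 0.49 in A20-KO against A20-WT passed narrowly (SE 0.153, limma adjusted p = 0.0493), and the call was lost when any single library of the 9 was left out (limma adjusted p 0.0594 to 0.146). With a pseudocount of 1 FPKM the value was 0.32 and did not pass (limma adjusted p = 0.0501). IFIT2, IFIT3, IFIT5, OAS1 and the exonuclease ISG20 passed nowhere. IFIT5 was the best expressed of these, with means of 6.38 ± 1.31, 4.52 ± 0.572 and 5.90 ± 0.149 FPKM (SD, n = 3 each), while OAS1 was at 0.104 to 0.230 FPKM. IFIT2 ranged from 0.341 to 0.849 FPKM, IFIT3 from 0.373 to 0.748 FPKM and ISG20 from 0.478 to 0.897 FPKM.

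The restriction factors held the most abundant member and some of the largest differences. IFITM3 (ENSG00000142089), which blocks fusion of virions with endosomal membranes and spans chr11:319669-327537 on the minus strand, was at 96.1, 119 and 147 FPKM in A20-WT, 162, 155 and 225 FPKM in A20-KO, and 250, 219 and 282 FPKM in A20-OE. The A20-OE libraries lay above all A20-WT libraries and overlapped those of A20-KO. IFITM3 rose in A20-OE against A20-WT by 1.06 (SE 0.194, limma adjusted p = 0.00316), and its differences of 0.58 in A20-KO against A20-WT (limma adjusted p = 0.0612) and 0.48 in A20-OE against A20-KO (limma adjusted p = 0.159) did not pass. It shares 21.29% of its exonic bases with AC136475.5 on the opposite strand.

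IFITM1 (ENSG00000185885), the relative that acts at the cell surface, spans chr11:313506-315272 on the plus strand. It was at 0.559, 0.333 and 0.296 FPKM in A20-WT, 1.94, 1.21 and 1.83 FPKM in A20-KO, and 1.78, 1.94 and 2.22 FPKM in A20-OE. Every A20-KO and A20-OE library lay above every A20-WT library. IFITM1 rose by 1.83 in A20-KO (SE 0.246, limma adjusted p = 0.00132) and by 2.10 in A20-OE (limma adjusted p = 0.000317) against A20-WT, or 4.18-fold and 4.99-fold in mean FPKM. With a pseudocount of 1 FPKM the rises were 0.92 and 1.1 on the log2 scale. These are low levels beside IFITM2, at 20.2 to 38.1 FPKM, which passed nowhere. IFITM1 and IFITM2 share 351 exonic bases on the same strand, 32.5% of those of IFITM1, and the 3 IFITM genes are near-identical in part, so reads may be split between them.

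BST2 (tetherin, ENSG00000130303), which anchors budding virions to the plasma membrane, spans chr19:17402939-17405648 on the minus strand. It was at 0.360, 0.322 and 0.643 FPKM in A20-WT, 1.03, 1.42 and 1.04 FPKM in A20-KO, and 1.07, 1.66 and 1.40 FPKM in A20-OE. As for IFITM1, both groups lay clear of A20-WT and overlapped each other. BST2 rose by 1.25 in A20-KO (SE 0.263, limma adjusted p = 0.00988) and by 1.47 in A20-OE (limma adjusted p = 0.00283) against A20-WT, or by 0.59 and 0.72 with a pseudocount of 1 FPKM. MX1, SAMD9 (2.16 to 5.20 FPKM) and the ubiquitin ligases TRIM21 (5.87 to 7.90 FPKM) and TRIM22 (0.109 to 0.388 FPKM) passed nowhere. MX1, a dynamin-like GTPase and a common reporter of interferon action, reached 0.0928 FPKM in A20-WT, 0.174 FPKM in A20-KO and 0.213 FPKM in A20-OE at most.

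**Figure D5:**
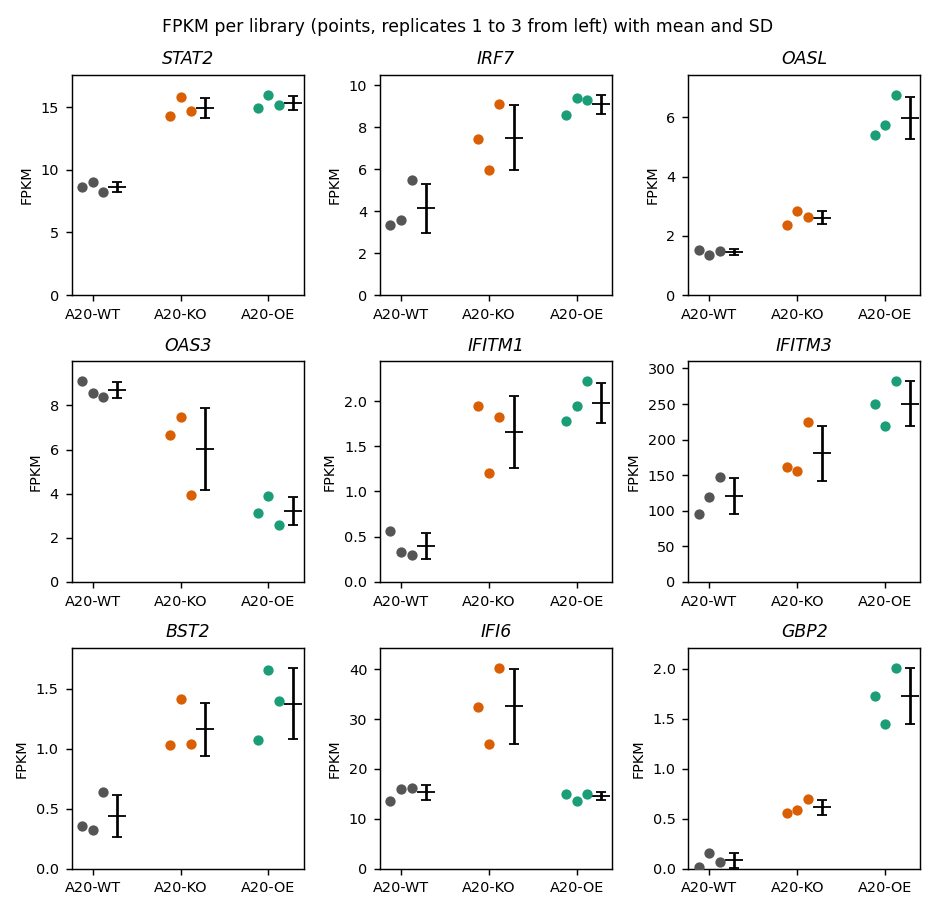
FPKM of 9 members per library (points, replicates 1 to 3 from left) with the group mean and SD (black), on axes that start at 0. STAT2, IFITM1 and BST2 are higher in A20-KO and A20-OE than in A20-WT, OASL and GBP2 step up from A20-WT to A20-KO and from A20-KO to A20-OE, IFI6 is high in A20-KO alone, and OAS3 falls towards A20-OE, where its mean is 3.21 FPKM against 8.68 FPKM in A20-WT.

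In the ISG15 conjugation pathway, ISG15 itself was abundant and passed nowhere. Its level was 70.4, 87.9 and 120 FPKM in A20-WT, 103, 94.5 and 146 FPKM in A20-KO, and 97.6, 80.3 and 108 FPKM in A20-OE, with overlap between all groups. UBE2L6, its E2 conjugating enzyme, rose in A20-KO against A20-WT by 0.40 (SE 0.123, limma adjusted p = 0.0471), from 11.0 ± 0.706 to 14.6 ± 1.78 FPKM (SD, n = 3 each). USP18, which removes ISG15 and restrains the type I interferon receptor, fell by 0.49 (SE 0.144, limma adjusted p = 0.0369), from 4.72 ± 0.242 to 3.34 ± 0.475 FPKM (SD, n = 3 each). The UBE2L6 call was lost without A20-WT replicate 1 or 2, any A20-KO library, or A20-OE replicate 1 or 3 (limma adjusted p 0.0547 to 0.132), and the USP18 call without any library but A20-OE replicate 2 (limma adjusted p 0.0511 to 0.0999).

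USP18 also fell in A20-OE against A20-WT by 0.59 on the log2 scale (limma adjusted p = 0.0129). HERC5, the main ISG15 ligase in human cells, was at 3.21 to 4.52 FPKM and its neighbour HERC6 at 1.20 to 1.94 FPKM, and neither passed. PARP9 and DTX3L, which work as a complex, and PARP14, a mono-ADP-ribosyltransferase, did not pass either. DTX3L, the highest of these 3, was at 3.80, 3.14 and 3.33 FPKM in A20-WT, 2.90, 3.42 and 2.52 FPKM in A20-KO, and 2.84, 3.22 and 3.0 FPKM in A20-OE. PARP9 was at 1.03 to 2.01 FPKM, and all A20-OE libraries lay above all those of A20-KO (log2 fold change 0.53, limma adjusted p = 0.0812) and of A20-WT (0.31, limma adjusted p = 0.195). PARP14 was lower in every A20-KO and A20-OE library than in every A20-WT library, with log2 fold changes of -0.40 (limma adjusted p = 0.0992) and -0.43 (limma adjusted p = 0.0633).

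IFI6 was the member that rose in A20-KO and fell again in A20-OE. IFI6 (ENSG00000126709), a small protein known to protect cells from apoptosis and from flaviviruses, spans chr1:27666061-27672218 on the minus strand. It was at 13.6, 16.0 and 16.3 FPKM in A20-WT, 32.4, 25.1 and 40.2 FPKM in A20-KO, and 15, 13.6 and 14.9 FPKM in A20-OE. All 3 A20-KO libraries lay above the other 6. IFI6 rose by 1.06 in A20-KO against A20-WT (SE 0.160, limma adjusted p = 0.00223) and fell by 1.14 in A20-OE against A20-KO (limma adjusted p = 0.00540), and the difference between A20-OE and A20-WT was -0.07 (limma adjusted p = 0.772).

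IFI27, a mitochondrial and nuclear-envelope protein of the same family, had means of 0.574 ± 0.157, 1.25 ± 0.343 and 1.04 ± 0.0874 FPKM in A20-WT, A20-KO and A20-OE (SD, n = 3 each). It rose by 1.00 in A20-KO (SE 0.237, limma adjusted p = 0.0167) and by 0.78 in A20-OE (limma adjusted p = 0.0337) against A20-WT, or by 0.51 and 0.38 with a pseudocount of 1 FPKM. Without A20-WT replicate 2 or A20-KO replicate 1 or 3 the first call was lost (limma adjusted p 0.0535 to 0.0556), and without A20-WT replicate 2 or 3, A20-KO replicate 1 or any A20-OE library the second was lost (limma adjusted p 0.0553 to 0.101). IFI35, the partner of NMI, fell in A20-OE against A20-WT by 0.81 on the log2 scale (SE 0.246, limma adjusted p = 0.0330). That call was lost without A20-WT replicate 2 or 3, A20-KO replicate 1 or any A20-OE library (limma adjusted p 0.0537 to 0.118). LGALS3BP, a secreted glycoprotein, was at 110, 120 and 159 FPKM in A20-WT, 131, 126 and 163 FPKM in A20-KO, and 113, 105 and 133 FPKM in A20-OE, and like IFI44, at 0.168 to 0.550 FPKM, it did not pass.

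The guanylate-binding proteins are large GTPases that attack membranes around intracellular pathogens and respond strongly to interferon gamma. GBP2 (ENSG00000162645), on chr1:89106132-89150456 of the minus strand, was at 0.0193, 0.159 and 0.0701 FPKM in A20-WT, 0.557, 0.583 and 0.697 FPKM in A20-KO, and 1.72, 1.45 and 2.0 FPKM in A20-OE. The counts behind these were 3, 25 and 11 reads, 85, 90 and 102 reads, and 253, 226 and 289 reads. No groups overlapped. GBP2 rose by 2.03 in A20-KO against A20-WT (SE 0.295, limma adjusted p = 0.00189), by 1.35 in A20-OE against A20-KO (limma adjusted p = 0.0266) and by 3.38 in A20-OE against A20-WT (limma adjusted p = 6.76e-05). These sizes depended on the pseudocount, and over all alternatives they ran from 0.58 to 3.23, from 0.75 to 1.47 and from 1.33 to 4.67, lowest with a pseudocount of 1 FPKM. The step between A20-KO and A20-OE lost its call when any of these 6 libraries was left out (limma adjusted p 0.0620 to 0.101), with a pseudocount of 0.01 FPKM and with no filter on low values. GBP2 shares 9.895% of its exonic bases with GBP7 on the same strand.

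GBP3 (ENSG00000117226), on chr1:89006666-89022894 of the minus strand, was at 0.0562, 0.149 and 0.0372 FPKM in A20-WT, 0.0766, 0.0947 and 0.160 FPKM in A20-KO, and 0.348, 0.225 and 0.304 FPKM in A20-OE. The A20-OE libraries lay above the other 6. Its mean over the other 6 was 0.0956 FPKM, under the filter, so it was tested only because it was high in A20-OE and had to differ there. GBP3 rose in A20-OE against A20-WT by 1.15 (SE 0.363, limma adjusted p = 0.0386), or by 0.26 with a pseudocount of 1 FPKM and 1.91 with 0.01 FPKM. The call was lost without A20-WT replicate 1 or 3 or A20-OE replicate 1 or 3 (limma adjusted p 0.0719 to 0.107). GBP1, another target of interferon gamma, had 15 reads in all libraries together, 7 of them in A20-OE replicate 3. For single members, an exact two-sided permutation test of 3 libraries against 3 cannot go below p = 0.1, which every pair of groups that did not overlap reached.

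Beside the tests, 20 of the 40 tested members (50%) had groups that did not overlap in A20-KO against A20-WT, 16 of them higher and 4 lower, against 38.15% of all genes. The shares were 37.5% against 35.4% in A20-OE against A20-KO, and 52.5% against 45.35% in A20-OE against A20-WT. Both of these member shares include GBP3, which was tested only because it was high in A20-OE. Of the 24 members with an ISRE core match in their window, 22 were tested and 5 rose in A20-KO against A20-WT (IFIT1, IFITM1, BST2, IFI6 and IFI27), 22.7% against 11.3% of all genes. Of 10 members whose window held no match, 8 were tested and 2 rose (STAT2 and UBE2L6), or 25%. Of the 12 members with no window in the table, 10 were tested and 4 rose (IRF3, IRF7, OASL and GBP2), or 40%. USP18 fell, which is 10% of these against 11.0% of all genes. In A20-OE against A20-WT the shares that rose were 22.7%, 25% and 30% against 15.7% of all genes. The first of these shares includes GBP3, which reached the filter only through the A20-OE libraries. Both members that rose in A20-OE against A20-KO had no window, 20% of the 10 tested without one against 4.43% of all genes. The differences between these shares were not tested.

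The surrounding pathway was followed in 43 further genes, of which 35 were tested. IFNB1 and IFNG had no read in any library, where a count of 0 allows up to 3 reads in each. IFNL1 had 20 reads in all, at most 7 in a library. Its mean was 0.0311 FPKM in A20-WT, 0.0972 in A20-KO and 0.197 in A20-OE, and it passed in no comparison. IFNL2 (13 reads in all) and IFNL3 (16 reads) were not tested. Their means were also highest in A20-OE, at 0.133 and 0.243 FPKM, and 11 of the IFNL3 reads came from A20-OE replicate 3. IFNE had 55 reads in all, at most 18 in a library, and its difference of -1.11 in A20-OE against A20-KO did not pass (limma adjusted p = 0.300). Of the 6 receptor subunits, IFNGR1 and IFNLR1 rose in A20-OE against A20-WT (33.3% against 15.7% of all genes) and none passed in A20-KO against A20-WT. TYK2, the kinase bound to IFNAR1, fell in A20-OE against A20-KO (log2 fold change -0.54, limma adjusted p = 0.0345) and against A20-WT (-0.48, limma adjusted p = 0.0190).

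SOCS3, a feedback inhibitor of JAK kinases, was at 4.27, 4.58 and 6.11 FPKM in A20-WT, 6.49, 6.12 and 6.54 FPKM in A20-KO, and 13.2, 10.7 and 11.1 FPKM in A20-OE. It rose in A20-OE against A20-WT by 1.22 (SE 0.144, limma adjusted p = 0.000332) and against A20-KO by 0.86 (limma adjusted p = 0.0107). SOCS1 rose in A20-KO against A20-WT by 0.58 (limma adjusted p = 0.0494). Of the 8 genes of interferon induction, STING1, the adaptor that receives the cGAS signal, rose in A20-KO against A20-WT by 0.69 (limma adjusted p = 0.00863), and CGAS itself had 7 reads in all. TLR3, TBK1 and IKBKE fell in A20-OE against A20-WT, with log2 fold changes of -0.89, -0.66 and -0.90. They were 42.9% of the 7 genes of interferon induction tested, against 15.4% of all genes, and none of the 7 rose there.

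Of 14 further interferon-stimulated genes, 13 were tested. In A20-KO against A20-WT, RNF213 rose (7.69% against 11.3% of all genes) and CMPK2 and ZC3HAV1 fell (15.4% against 11.0%). In A20-OE against A20-WT, RNF213 rose (7.69% against 15.7%) and ADAR, CMPK2, PLSCR1, LAP3 and NMI fell (38.5% against 15.4%). None of the 13 passed in A20-OE against A20-KO. Their median log2 fold changes were -0.18 in A20-KO and -0.19 in A20-OE against A20-WT, and 0.19 in A20-OE against A20-KO. RNF213, a giant ubiquitin ligase, was at 2.76, 2.77 and 2.78 FPKM in A20-WT, 5.53, 6.09 and 4.24 FPKM in A20-KO, and 7.46, 9.72 and 6.16 FPKM in A20-OE. Its log2 fold change was 0.89 in A20-KO (limma adjusted p = 0.00838) and 1.43 in A20-OE (SE 0.181, limma adjusted p = 0.000469) against A20-WT. CMPK2, a mitochondrial nucleotide kinase, went the other way, at 0.918, 0.688 and 0.576 FPKM in A20-WT, 0.268, 0.369 and 0.160 FPKM in A20-KO, and 0.298, 0.318 and 0.344 FPKM in A20-OE, and fell by 1.20 on the log2 scale in A20-KO (SE 0.279, limma adjusted p = 0.0152). RSAD2 (viperin), its neighbour on chromosome 2, had 30 reads in all. Over the 35 genes tested, 3 rose in A20-KO against A20-WT (8.57% against 11.3% of all genes) and 2 fell (5.71% against 11.0%). In A20-OE against A20-KO, 1 rose (2.86% against 4.43%) and 1 fell (2.86% against 4.54%). In A20-OE against A20-WT, 4 rose (11.4% against 15.7%) and 9 fell (25.7% against 15.4%). The median log2 fold changes were 0.02, 0.06 and -0.10, against -0.01, 0.01 and 0.03 over all genes tested.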

How the data were processed

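RNA-seq was performed on HCT116 cells, 3 libraries each of A20-WT, A20-KO and A20-OE. The authors aligned 150 bp paired-end reads with HISAT2 (version 2.0.5), counted them with featureCounts (version 1.5.0-p3) and deposited FPKM per gene. Per the file headers the table also gives gene length, from which whole reads were recovered (100% whole within 0.01). The Methods name DESeq2, which was not run here. The genome build and strand setting are not given in the sources used here. All genes had the same start and end as in GENCODE 29 on GRCh38.

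The 46 members and all lists were chosen with earlier results of these data known. One gene of the pathway lists is counted but not reported here. Groups and replicate numbers came from the labels. limma (version 3.58.1, R 4.3.3) with a variance trend was fitted to log2(FPKM + 0.1) over the 21636 genes with a mean of at least 0.1 FPKM, all 3 groups in 1 fit, with Benjamini-Hochberg adjustment over all genes. Fold changes on this scale understate those of low genes. The script was tested on simulated data. Reads per library ran from 23406222 to 24963691, and the limits that they set cover counting error only.

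Values were given per library for members past an absolute log2 fold change of 1 in any comparison, for the highest member of each role, and for STAT2, which was added after its values were seen. Other members that passed were given by group mean or fold change, and the rest by range and count. RefSeq promoter windows were matched by symbol, and motif matches were found on both strands. Tried as alternatives were a pseudocount of 1 or 0.01, a filter at 1 FPKM or none at all, scaling by median of ratios, fits to 2 groups alone, a block on replicate number, a fit without the variance trend, limma-voom on reads, and 9 fits that each dropped a library.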

Additional observations from a re-analysis of the deposited data

How the results depend on the processing

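Of 29 calls of single members, 13 held in all 18 alternatives, 4 of BST2 and GBP2 held in the 17 that could be run for them (the filter at 1 FPKM leaves these genes out), and none changed sign. Members past the test in A20-KO against A20-WT fell from 12 to 6 when only these 2 groups were fitted, and were 6 to 12 with 1 library left out. Calls over all genes fell from 4816 to 3060 in the fit of 2 groups. In A20-OE against A20-KO the members fell from 4 to 2 with no filter on low values, and all genes from 1940 to 1222. With 1 library left out the members were 2 to 5 in that comparison, and 9 to 13 against 13 in A20-OE against A20-WT. Past the fold threshold, a pseudocount of 1 left 1 of 4 members in A20-KO against A20-WT, 1 of 3 in A20-OE against A20-KO and 5 of 8 in A20-OE against A20-WT, and a filter at a mean of 1 FPKM left 2 of 4 in the first and 5 of 8 in the last. Over all genes the pseudocount of 1 gave 472, 155 and 976 in place of 1512, 517 and 2571. The filter at 1 FPKM gave 931 in the first and 1555 in the last. With 1 library left out the member counts past the fold threshold were 3 to 6, 2 to 3 and 7 to 8. Among differences that did not pass, that of STAT2 in A20-OE against A20-KO reversed to -0.0064 with limma-voom, and that of USP18 reversed to 0.019 without A20-OE replicate 2 (range -0.21 to 0.019 with 1 library left out). For members with a call in any comparison, some differences that did not pass in the main fit passed in alternatives. That of IFITM3 in A20-KO against A20-WT did so in 5 of 18 (lowest limma adjusted p = 0.0122). In A20-OE against A20-KO, OAS3 did so in 4 (lowest limma adjusted p = 0.0147), IRF3 in 2 and IFITM3 in 1. IRF2, OAS3 and IFI35 each did so in 1 in A20-KO against A20-WT. The causes were not tested.

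With replicate as a block in the fit, 15, 6 and 12 members passed in place of 12, 4 and 13. Over all genes, 5602, 2577 and 7348 passed in place of 4816, 1940 and 6735. The labels do not say that the numbers pair the libraries. Deviations of same-numbered libraries correlated between -0.03 and 0.12, with 1 of 9 pairs over 0.1, against -0.13 to 0.07 for other numbers. The highest pair was replicate 3 of A20-KO and A20-OE, and 4 of 9 libraries were closest to their own number. Some genes were also highest in replicate 3 of all groups, as given below. The block was kept as an alternative and is not part of the main fit. Depth limits GBP1, OAS2, SAMD9L, MX2, IFI44L and XAF1, whose differences were not detectable.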

Other observations

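A number of members were highest in the library of the same number in each group. Of the 40 tested, 10 were highest in replicate 3 of all 3 groups, among them IFITM3, LGALS3BP, ISG15, IFITM2, IRF3 and UBE2L6, which is 25% against 13.2% of all genes tested. STAT2 was the only member highest in replicate 2 of all 3 groups (2.5% against 4.24%), and none was highest in replicate 1 of all 3 (0% against 3.48%). Replicate 3 also had the largest ratio of recovered reads to the depth that its FPKM imply, 0.998, 1.02 and 1.07 in A20-WT, A20-KO and A20-OE, against 0.95 to 1.00 in the other libraries. Whether that ratio has a part in these levels was not tested.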
